A study of Mus musculus with 6 samples.

Results

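Parp genes encode ADP-ribosyltransferases, enzymes that move ADP-ribose from NAD onto proteins and nucleic acids, and 10 of them were followed here in microglia, the resident macrophages of the brain, at the peak of EAE (experimental autoimmune encephalomyelitis), which models multiple sclerosis in mice. The members were chosen by gene symbol: Parp9, Parp10, Parp11, Parp12 and Parp14, a group known for induction by interferon; Parp1, Parp2 and Parp3, known for DNA repair; and Parp8 and Parp16, which belong to neither. Where a gene had several probe sets, the brightest on average was to represent it. Of the 10 members, 9 had a probe set among the 19505 named genes. Each had 1 probe set, so that no measured level decided the choice of probe set. The members themselves were chosen with earlier results of these data known. Parp1 was not analysed here. The DNA repair side therefore consists of Parp2 and Parp3.

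The study compared 3 samples from B cell conditional knock-out (CKO) mice with 3 from control mice. Every mouse was a female C57BL/6, and each sample had an array of its own. By its title, the series concerns B cells expressing GM-CSF, a growth factor of myeloid cells. All mice in both groups had been immunised with recombinant MOG, a myelin protein, in incomplete Freund's adjuvant and had received pertussis toxin. The sources used here name neither the deleted gene nor the Cre driver, nor do they give the controls' genotype, the age of the mice or the way the microglia were isolated. The labels do not call the replicates separate animals, so p-values reflect sample-to-sample spread that may be technical.

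As background, DNA breaks activate Parp1, Parp2 and Parp3, whose products recruit repair factors. Most other family members attach single ADP-ribose units. Parp9 to Parp14 are induced by type I interferon and interferon-gamma in many cell types, and several act on viral RNA, on ubiquitin ligases or on STAT signalling. In microglia, interferon signalling is part of the response to infiltrating T cells in EAE.

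The arrays were not uniform within groups. Each held 22206 log2 values (normalised by the authors), with medians from 7.18 to 7.34 on the CKO arrays and from 7.13 to 7.20 on the control arrays, and the members ranged from 7.12 to 13.67. Microglial markers had mean log2 levels of 16.48 to 17.06 on the CKO arrays and 16.28 to 16.73 on the control arrays (9 of 10 listed genes measured, among them P2ry12, Csf1r and Cx3cr1). CKO replicate 1 and control replicate 2 stood apart through neural markers: the 9 measured astrocyte markers averaged 12.64 on CKO replicate 1, against 9.20 on each of CKO replicates 2 and 3, and 11.12 on control replicate 2, against 9.32 and 8.77 on control replicates 1 and 3.

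All 5 interferon-inducible members had lower values on every CKO array than on any control array. The differences were -1.78 for Parp10, -1.74 for Parp9, -1.43 for Parp12, -1.34 for Parp14 and -0.90 for Parp11 on the log2 scale, or 3.43-, 3.33-, 2.69-, 2.54- and 1.87-fold lower in CKO. Parp3, from the DNA repair side, also showed separated groups, with a difference of -0.87 close to that of Parp11. None of the 9 measured members passed at an adjusted p under 0.05 (limma, two-sided, Benjamini-Hochberg adjustment over all 22206 probe sets), a threshold passed by 0.00901% of probe sets. At an unadjusted p under 0.05, a description without control of false discoveries, 6 of 9 members were lower in CKO, against 6.35% of all probe sets, and 0 of 9 were higher, against 3.55%. The same 6 members had every CKO array below every control array, against 8.48% of all probe sets, and 0 had every CKO array above, against 5.94%. Parp9, Parp10 and Parp12 passed the adjusted threshold as lower when CKO replicate 1 was left out, and when arrays were weighted by quality. They also passed when CKO replicate 1 and control replicate 2 were both left out, a fit added after the data were seen. Of all probe sets, 4.94%, 4.76% and 6.28% passed as lower in these fits, in that order. The first and the last fit both lack CKO replicate 1, so they are not separate checks.

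**Figure D1:**
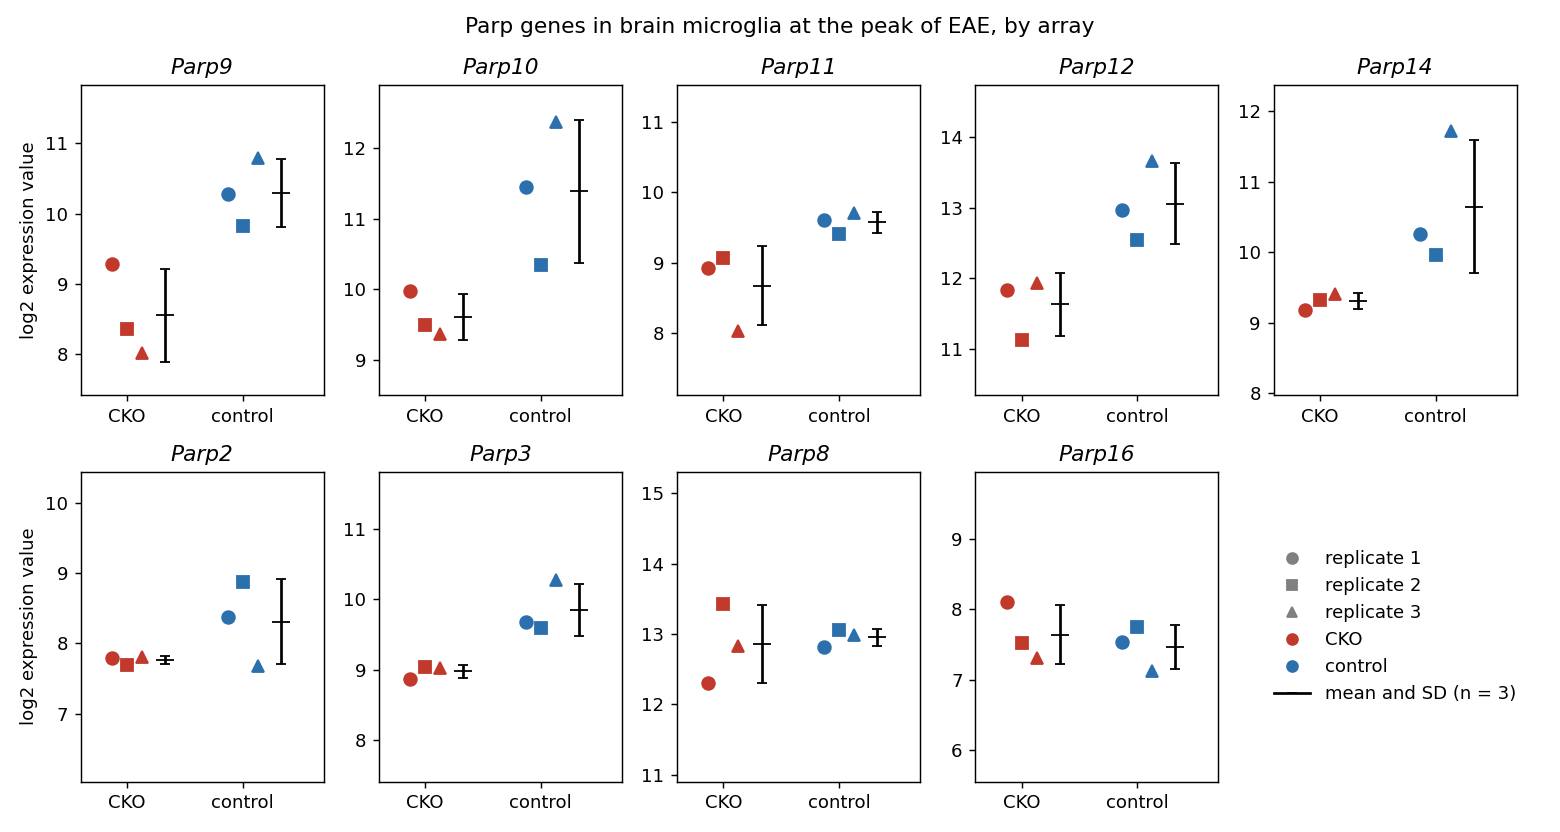
Log2 expression values of the 9 measured Parp genes on each array, CKO (red) left of control (blue), with replicates marked by symbol and the mean with SD (n = 3) beside them; every panel spans the same number of log2 units. Groups are separate for Parp9, Parp10, Parp11, Parp12, Parp14 and Parp3, and overlap for Parp2, Parp8 and Parp16.

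Parp9 encodes a macrodomain protein that works with the ubiquitin ligase Dtx3l. It stood at 9.29, 8.36 and 8.02 on CKO replicates 1, 2 and 3, against 10.27, 9.82 and 10.79 on control replicates 1, 2 and 3. CKO replicate 1 lay closest to the controls, 0.53 below control replicate 2. The difference was -1.74 (SE 0.41, limma adjusted p = 0.187).

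Parp10 encodes a mono-ADP-ribosyltransferase. Its values were 9.98, 9.49 and 9.36 on the CKO arrays, against 11.45, 10.34 and 12.37 on the control arrays. The controls spread more than the CKO arrays, with means of 9.61 ± 0.33 in CKO and 11.39 ± 1.02 in controls (SD, n = 3 each), and the nearest arrays of the groups were 0.36 apart. The difference was -1.78 (SE 0.49, limma adjusted p = 0.258).

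Parp12 encodes a zinc-finger protein that binds RNA and restricts viruses. It read 11.84, 11.12 and 11.93 on the CKO arrays, against 12.97, 12.54 and 13.67 on the control arrays. Here CKO replicate 2, not replicate 1, was set apart from the other CKO arrays. The difference was -1.43 (SE 0.38, limma adjusted p = 0.238).

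Parp14 encodes a large macrodomain protein first described in the mouse as a cofactor of Stat6. Its CKO arrays were close together at 9.18, 9.32 and 9.41, against 10.26, 9.96 and 11.72 on the control arrays. Control replicate 3 exceeded the other controls by more than those exceeded the CKO arrays. The difference of -1.34 (SE 0.45, limma adjusted p = 0.374) was -0.81 without that array.

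Parp11 encodes a mono-ADP-ribosyltransferase and showed the smallest difference of the 5. It stood at 8.93, 9.07 and 8.03 on the CKO arrays, against 9.61, 9.41 and 9.71 on the control arrays. Its controls were narrow (9.58 ± 0.15, against 8.68 ± 0.56 in CKO, SD, n = 3 each), and CKO replicate 3 was the low array. The difference was -0.90 (SE 0.34, limma adjusted p = 0.436), and -0.58 without CKO replicate 3.

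Parp3, which acts at double-strand breaks, had 8.87, 9.04 and 9.03 on the CKO arrays, against 9.68, 9.59 and 10.27 on the control arrays. The groups were 0.55 apart at their nearest arrays, a separation as wide as that of Parp14. The difference was -0.87 (SE 0.29, limma adjusted p = 0.367).

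Parp2, which senses single-strand breaks together with Parp1, had 7.79, 7.70 and 7.81 on the CKO arrays, against 8.38, 8.87 and 7.68 on the control arrays. The groups overlapped: control replicate 3, the array with the highest values of the interferon-inducible members, had the lowest Parp2 value of all 6. The difference was -0.54 (SE 0.34, limma adjusted p = 0.607), and it was -0.26 without control replicate 2 and -0.86 without control replicate 3 (limma unadjusted p = 0.0329, adjusted p = 0.823). Its 95% interval over all 6 arrays, from -1.33 to 0.24, holds both no difference and one of the size seen for Parp3.

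Parp8, a little-studied member, had 12.31, 13.42 and 12.83 on the CKO arrays, against 12.82, 13.06 and 12.98 on the control arrays. Parp16, anchored in the endoplasmic reticulum and tied to the unfolded protein response, had 8.10, 7.52 and 7.30 on the CKO arrays, against 7.53, 7.74 and 7.12 on the control arrays. The groups overlapped for both genes, with differences of -0.10 (95% interval -0.86 to 0.66) and 0.18 (-0.56 to 0.91). The sign of either difference turned under some processing choices.

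Set against each other, the interferon-inducible members averaged -1.44 and Parp2 with Parp3 averaged -0.71, while the median over all probe sets was 0.06. The gap between the averages, -0.73, had a pooled SD over arrays of 0.57 and is a description, since the members were chosen with results known. On single arrays, the mean deviation of the interferon-inducible members minus that of the repair members was -0.03, -0.45 and -0.62 on CKO replicates 1, 2 and 3, against 0.33, -0.36 and 1.13 on control replicates 1, 2 and 3. These values overlapped between groups, with control replicate 2 below CKO replicate 1. The gap was -0.35 without control replicate 3 and -1.10 without control replicate 2.

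**Figure D2:**
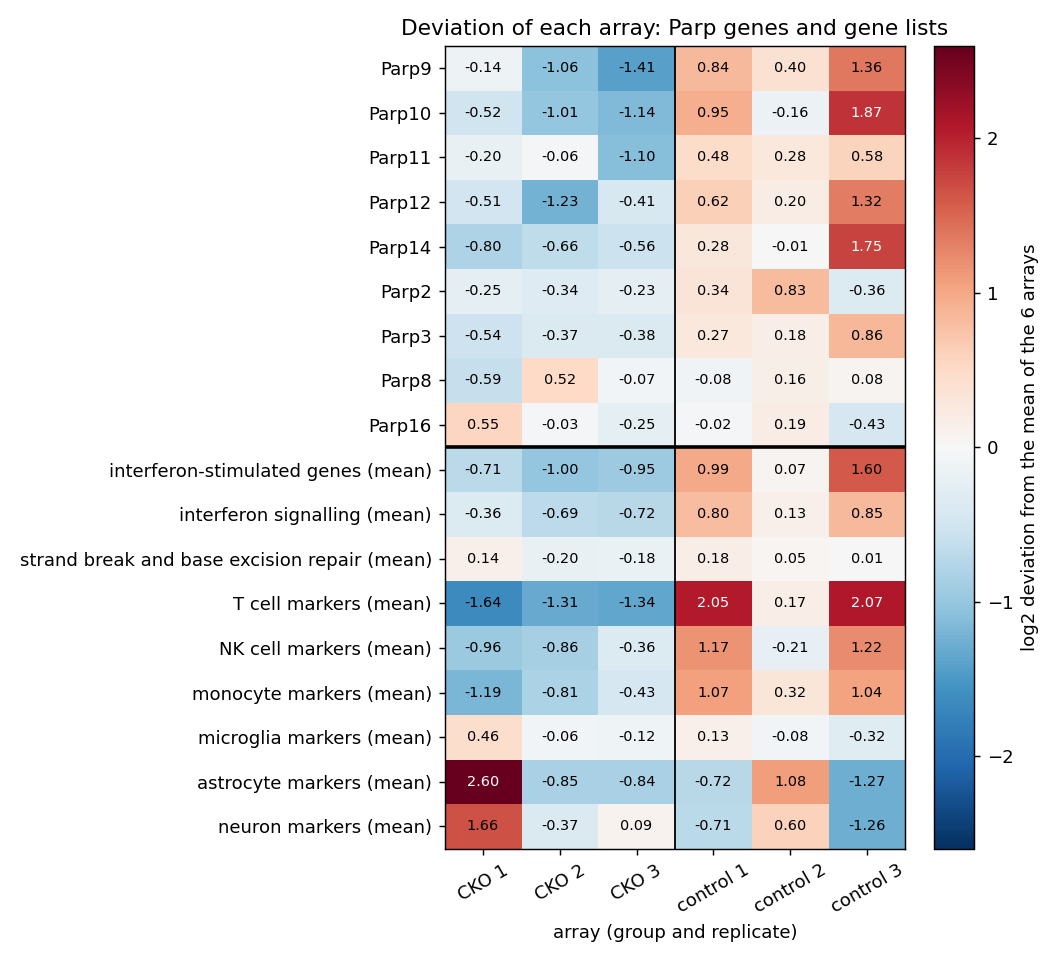
Log2 deviation of each array from the mean of the 6 arrays, for the 9 measured Parp genes (upper block) and as the mean over gene lists (lower block), CKO arrays left and control arrays right. Control replicate 3 is the highest array for Parp9, Parp10, Parp11, Parp12, Parp14 and Parp3 and for interferon-stimulated genes (1.60), and astrocyte markers peak on CKO replicate 1 (2.60).

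The control arrays ranked alike for the interferon-inducible members. Their order does not enter the group difference, but the high values of control replicate 3 do. Without that array the members averaged -1.11, against -1.44 over all arrays, so the order is not separate support for the difference. All 5 had control replicate 3 highest, control replicate 1 next and control replicate 2 lowest, an order that 19.9% of all probe sets showed. Parp3 shared it, whereas Parp2, Parp8 and Parp16 did not. Of 28 measured interferon-stimulated genes, 26 had the same order. This order was noticed after the values were seen. T cell markers averaged 6.60 to 6.94 on the CKO arrays, against 10.30, 8.41 and 10.32 on control replicates 1, 2 and 3, and 3 of their 11 measured genes had the order. Astrocyte markers ran the other way on the control arrays, and the part of either cell type in the Parp values was not tested.

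Promoter sequences were available for 7 of the 10 members and show where interferon-type motifs lie in these and some related genes. Parp9, Parp10 and Parp14 had no window, so the interferon-inducible members are represented by Parp11 and Parp12 only. RefSeq windows (build GRCm38.p6) of 300 bases, from 250 before to 50 after a gene's start, were searched for the interferon-stimulated response element as GAAA, any 2 bases and GAAA, and for the STAT-binding GAS element as TTC, any 3 bases and GAA, on both strands. The first occurs in 3.44% and the second in 8.30% of all 32851 windows. The lines give a Parp11 window with both motifs, the windows of Parp12 and Parp3 with neither, that of Parp4 with overlapping response elements, and that of Ifit3, a classical interferon-induced gene, for comparison; capitals mark motif matches.
Parp11 (chr6:127446590-127446889, plus strand): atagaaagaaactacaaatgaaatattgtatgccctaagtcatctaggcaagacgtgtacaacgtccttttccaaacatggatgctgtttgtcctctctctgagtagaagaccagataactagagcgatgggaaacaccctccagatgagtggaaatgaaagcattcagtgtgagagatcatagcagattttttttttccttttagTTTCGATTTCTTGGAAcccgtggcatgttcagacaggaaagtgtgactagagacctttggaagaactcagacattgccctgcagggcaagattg
Parp12 (chr6:39118300-39118599, minus strand): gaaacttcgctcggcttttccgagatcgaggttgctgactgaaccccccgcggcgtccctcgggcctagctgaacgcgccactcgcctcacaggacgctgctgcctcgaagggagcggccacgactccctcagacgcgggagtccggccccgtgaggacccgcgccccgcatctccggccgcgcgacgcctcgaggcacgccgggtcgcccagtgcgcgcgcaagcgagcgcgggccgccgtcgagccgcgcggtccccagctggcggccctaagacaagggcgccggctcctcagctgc
Parp3 (chr9:106476900-106477199, minus strand): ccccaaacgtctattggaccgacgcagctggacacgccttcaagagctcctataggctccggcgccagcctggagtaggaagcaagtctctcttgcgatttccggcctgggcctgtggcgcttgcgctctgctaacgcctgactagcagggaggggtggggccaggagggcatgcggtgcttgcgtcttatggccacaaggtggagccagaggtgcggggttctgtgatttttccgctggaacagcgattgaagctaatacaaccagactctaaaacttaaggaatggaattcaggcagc
Parp4 (chr14:56575369-56575668, plus strand): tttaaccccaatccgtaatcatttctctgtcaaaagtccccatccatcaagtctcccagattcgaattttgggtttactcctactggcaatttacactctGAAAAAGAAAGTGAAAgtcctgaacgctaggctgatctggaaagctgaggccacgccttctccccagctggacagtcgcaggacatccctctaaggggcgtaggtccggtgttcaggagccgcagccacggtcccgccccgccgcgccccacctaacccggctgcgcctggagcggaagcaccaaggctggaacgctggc
Ifit3 (chr19:34583279-34583578, plus strand): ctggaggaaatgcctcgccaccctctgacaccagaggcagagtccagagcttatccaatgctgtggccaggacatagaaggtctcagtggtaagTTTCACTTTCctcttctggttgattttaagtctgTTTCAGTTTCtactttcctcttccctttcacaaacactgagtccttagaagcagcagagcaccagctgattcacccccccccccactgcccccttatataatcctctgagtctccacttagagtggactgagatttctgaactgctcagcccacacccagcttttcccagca
In Parp11 the response element, on the reverse strand, begins 44 bases before the start and runs into the GAS element that begins 37 bases before it. In Parp4 the matches begin 150 and 144 bases before the start and overlap. Ifit3 has matches 156 and 122 bases before its start. A second Parp11 window and the windows of Parp1, Parp2 and Parp8 hold neither motif, and that of Parp16 holds a GAS match only. Among the other Parp and tankyrase genes, the response element is in 1 of 5 windows, that of Parp4, and the windows of Zc3hav1, which had the largest difference in the family, and of Dtx3l hold neither motif. Of the interferon-stimulated genes listed, 12 of 23 with a window had a response element, against 3.99% of all 27025 genes with a window. A match describes these letters only, and a link between the motifs and the differences was not tested.

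Parp9 and Parp14 lie beside each other on chromosome 16 with Dtx3l between them, and the annotation of Dtx3l overlaps that of Parp9. Dtx3l had 8.53, 8.75 and 8.70 on the CKO arrays, against 10.05, 9.28 and 10.59 on the control arrays. Its groups did not overlap, the controls kept the order 3, 1, 2, and the difference was -1.31 (SE 0.36, limma adjusted p = 0.257). Outside the trio, the nearest protein-coding genes differed by -0.33 (Slc49a4), 0.16 (Hspbap1), -0.32 (Kpna1) and 0.52 (Wdr5b), at adjusted p from 0.618 to 0.849. The position of the probes relative to the overlap was not examined, so their values may not be fully separate.

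Among the other genes of the family, 2 of 6 had every CKO array below every control array, against 8.48% of all probe sets. Zc3hav1, also called PARP13 or ZAP, is a catalytically inactive family protein that binds viral RNA. It was not among the listed members, so the averages of Parp9 to Parp14 leave it out. Zc3hav1 had 8.39, 7.63 and 7.03 on the CKO arrays, against 9.50, 8.89 and 10.32 on the control arrays. It had the largest difference of the 15 family genes measured, -1.89 (SE 0.46, limma adjusted p = 0.210), and its groups did not overlap. Parp4, a component of vault particles and not grouped here with the interferon-inducible members, had 7.90, 7.02 and 7.76 on the CKO arrays, against 8.36, 8.35 and 9.07 on the control arrays. Its difference was -1.03 (SE 0.35, limma adjusted p = 0.380), again without overlap. Tiparp, a target of the aryl hydrocarbon receptor also called PARP7, differed by -0.24, Parp6 by 0.41, and the tankyrases Tnks and Tnks2, which act in Wnt signalling, by -0.46 and 0.13, all with overlapping groups and adjusted p from 0.663 to 0.881.

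**Figure D3:**
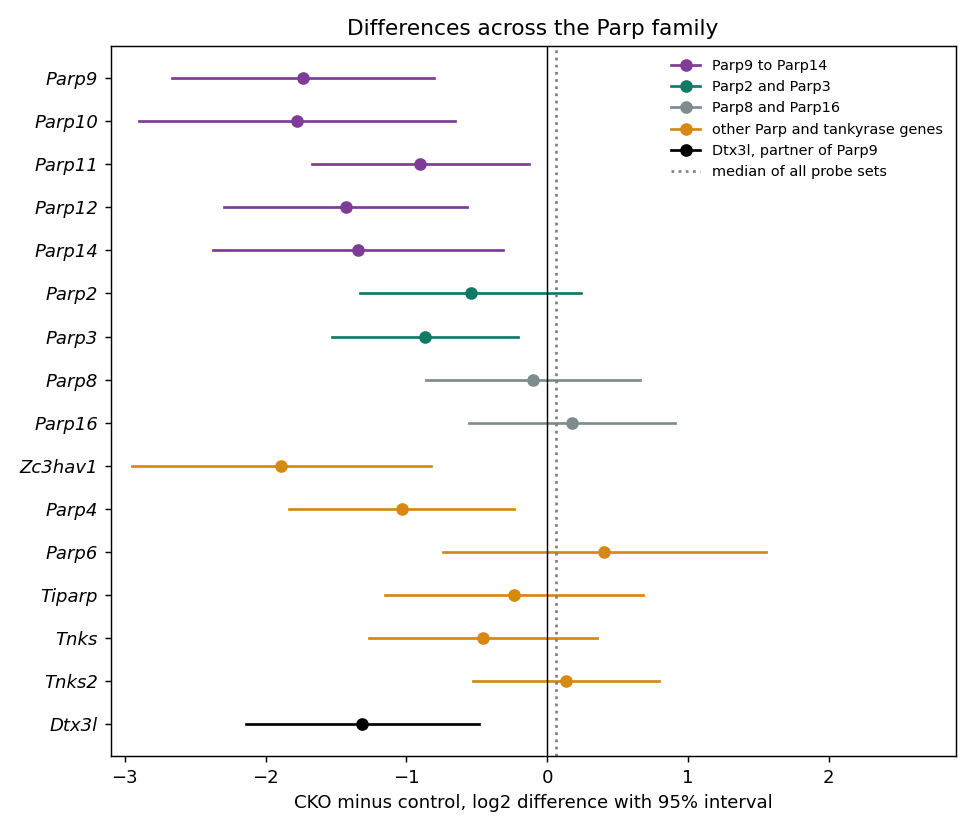
CKO minus control log2 differences (points) with 95% intervals from limma (lines) for the 9 measured members, 6 further family genes and Dtx3l; the dotted line is the median of all probe sets (0.06). Intervals of Parp9, Parp10, Parp11, Parp12, Parp14, Parp3, Zc3hav1, Parp4 and Dtx3l lie below 0, and no gene passed after adjustment over all probe sets.

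Interferon-stimulated genes, a list that holds no Parp gene, had a larger difference at the median than the 5 members. All 28 measured genes were lower in CKO, with a median of -1.74, against -1.43 for the 5 Parp genes and 0.06 for all probe sets; 26 of the 28 reached an unadjusted p under 0.05, against 6.35% of all probe sets lower at that threshold, and 0 passed over all probe sets (limma). Slfn5 differed by -3.18, Ifit3 by -2.77, Ifit3b by -2.68 and Oasl2 by -2.62, each beyond any member of the Parp family. Interferon signalling genes had a median of -0.87, all 15 measured genes being lower, 9 at an unadjusted p under 0.05 and 0 after adjustment over all probe sets. Irf7 differed by -3.38, Usp18, which restrains receptor signalling, by -2.10, Irf1 by -2.0, Stat2 by -1.98 and Irf9 by -0.64, at limma adjusted p from 0.121 to 0.555. The differences of the 5 interferon-inducible Parp members lay within the range of the stimulated genes, -3.18 to -0.67.

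DNA repair genes outside the family had differences of both signs. Of 20 measured genes of strand break and base excision repair, 13 were lower and 7 higher in CKO, where 44.5% of all probe sets were lower at any size. The median was -0.20, against 0.06 over all probe sets and -0.11 over those kept when the dimmest 50% were left out. Of the 20 genes, 0 reached an unadjusted p under 0.05 or passed over all probe sets (limma). Fen1, a flap endonuclease, differed by -0.79, Neil1, a glycosylase, by -0.58, Prkdc, the kinase of end joining, and Aptx, which repairs blocked ends, by -0.55 each, and Xrcc1, the scaffold recruited by poly(ADP-ribose), by 0.20. Xrcc1 had 7.31, 7.31 and 7.17 on the CKO arrays, against 7.22, 6.86 and 7.11 on the control arrays.

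Readers and erasers of ADP-ribose were mixed. Of 15 measured genes, 10 were lower and 5 higher in CKO, against 44.5% of all probe sets lower, with a median of -0.19. The median over the probe sets kept when the dimmest 50% were left out was -0.11. Dtx3l, Trpm2 and Macroh2a1 reached an unadjusted p under 0.05 as lower, 3 of 15 against 6.35% of all probe sets, and 0 passed over all probe sets (limma). Trpm2, an ion channel gated by ADP-ribose, differed by -1.69 (SE 0.62, adjusted p = 0.419) and rested in large part on CKO replicate 3, at 7.41 against 9.79 and 9.95 on the other CKO arrays and 10.65 to 10.83 on the control arrays. Macroh2a1, a histone variant with a macrodomain, differed by -0.81, and Macrod2, a hydrolase of single ADP-ribose units, by 0.88. Parg, the glycohydrolase that takes poly(ADP-ribose) apart, differed by 0.25, with 10.51, 10.48 and 10.76 on the CKO arrays, against 10.44, 9.94 and 10.62 on the control arrays.

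Genes of NAD supply and use, the substrate of the family, had a median of -0.20 over 19 measured genes, 13 of them lower, against 44.5% of all probe sets. Here too, the median over probe sets without the dimmest 50% was -0.11. Of the 19, 3 were lower at an unadjusted p under 0.05, against 6.35% of all probe sets, and 0 passed after adjustment (limma). Bst1, an ectoenzyme that consumes NAD, had 8.28, 8.71 and 8.70 on the CKO arrays, against 9.87, 9.69 and 10.01 on the control arrays. Its difference was -1.29 (SE 0.27, limma adjusted p = 0.150), with groups 0.98 apart at their nearest arrays. Nampt, the rate-limiting enzyme of NAD salvage, differed by -1.53 (SE 0.52, limma adjusted p = 0.384). Its groups overlapped slightly, with control replicate 2 at 10.44, below CKO replicate 1 at 10.46. Genes of the kynurenine route to NAD had differences of both signs. Kynu, Haao and Kmo differed by -0.87, -0.69 and -0.68, and Qprt and Ido1 by 0.56 and 0.07. Of these, only Kynu had groups that did not overlap. Kmo, Qprt and Ido1 were chosen for naming after their values were seen.

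**Figure D4:**
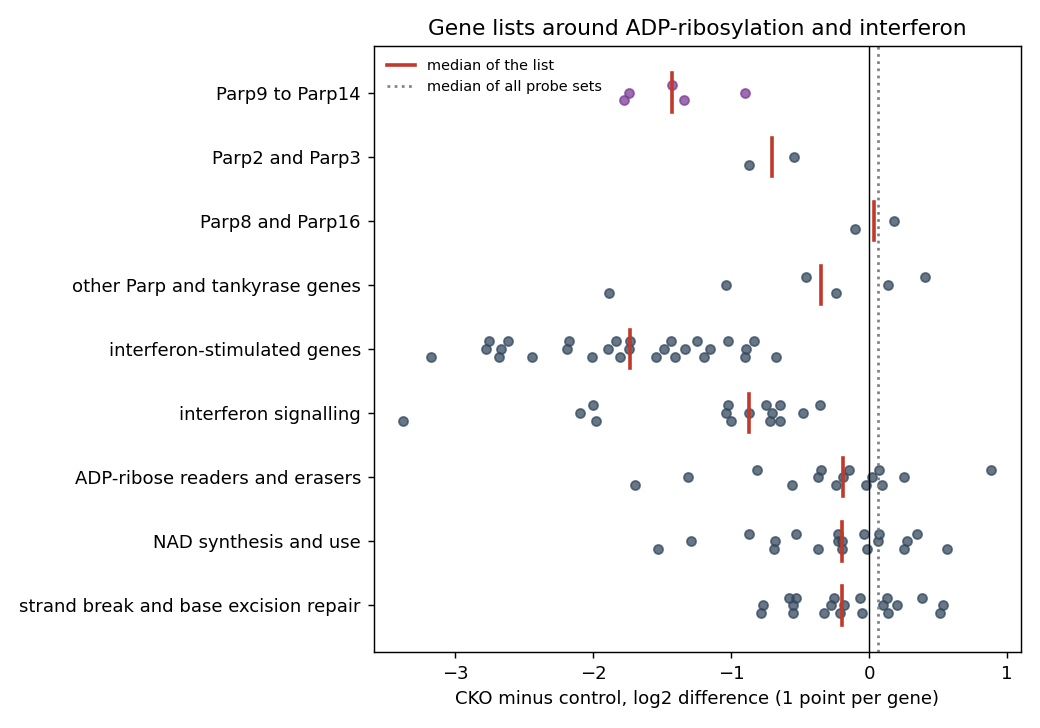
CKO minus control log2 difference of every measured gene in 9 lists (1 point per gene), with the list's median (red) and the median of all probe sets (dotted, 0.06). Parp9 to Parp14 lie among the interferon-stimulated genes, and strand break repair genes centre on -0.20.

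The genes closest in pattern to the members were taken by Pearson correlation over the 6 arrays among 18535 named genes, as a description that includes the group difference. Closest to Parp14 were Oog3 (0.999), Slfn9 (0.994) and Herc6 (0.993), with 70 genes over 0.95. Oog3 was dim, at 4.62, 4.71 and 4.74 on the CKO arrays, where the 5th percentile of all probe sets was 4.27, 4.69 and 4.64, so its signal is not shown to be above background. Closest to Parp12 were Capg (0.994), Emp3 (0.992) and Gdpd3 (0.992), with 120 genes over 0.95. Closest to Parp9 were Rpsa (0.997), Polr3a (0.997) and Lpxn (0.997), with 267 genes over 0.95. Of these genes, Herc6 was in the list of interferon-stimulated genes. Of the genes related by family or position, Zc3hav1 ranked at 12 for Parp9 (0.992), at 575 for Parp12 (0.884) and at 511 for Parp14 (0.862). Parp4 ranked at 1042 for Parp9 (0.881), at 33 for Parp12 (0.977) and at 531 for Parp14 (0.860). Dtx3l ranked at 1186 for Parp9 (0.868), at 285 for Parp12 (0.921) and at 53 for Parp14 (0.954).

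Markers of other leukocytes were measured in the same isolates. All 11 measured T cell markers were lower in CKO, with every CKO array below every control array for each, against 8.48% of all probe sets, and a median of -2.67; their mean log2 levels were 6.60 to 6.94 on the CKO arrays and 8.41 to 10.32 on the control arrays. The 10 NK cell markers had a median of -1.51 (6.60 to 7.20 on the CKO arrays, 7.35 to 8.78 on the control arrays), and the 10 monocyte markers one of -1.75 (10.72 to 11.48, against 12.22 to 12.98 on the control arrays). The 7 measured B cell markers varied more: their median was -0.88, and single genes ran from -4.98 (Jchain) to 0.19 (Blk). Of these, 2 of 7 were lower at an unadjusted p under 0.05 (limma), against 6.35% of all probe sets. None of the 9 measured neutrophil markers had every CKO array below every control array. Their median was -0.52, and 8 of 9 were lower in CKO, against 44.5% of all probe sets. At an unadjusted p under 0.05 (limma), 1 of 9 was lower, against 6.35% of all probe sets. Neutrophil markers had mean log2 levels of 12.58 to 13.56 on the CKO arrays and 13.37 to 14.21 on the control arrays. On each array these levels were above those of the T cell, NK cell, B cell and monocyte markers. Single neutrophil genes ran from -1.20 (Camp and Elane) to 0.03 (S100a9), with -0.20 for S100a8. Blk, Camp, Elane, S100a8 and S100a9 were chosen for naming after their values were seen. None of the T cell, NK cell, monocyte, B cell and neutrophil genes passed over all probe sets. In bulk samples, fewer cells of a type and less RNA per cell cannot be told apart, and the part of these cells in the Parp values was not tested.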

How the data were processed

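Total RNA of brain microglia was hybridised to Affymetrix arrays, 1 per sample, after labelling with a whole-transcript kit, per the labels' protocols. The deposited log2 values were made by the authors with RMA (background correction, normalization, probe summary), as the submitters' processing notes record without version or settings. Signal over background was not assessed. Of 22206 probe sets, 19572 named 1 gene symbol in the platform annotation, 0 several and 2634 none here. Groups came from the titles. limma 3.58.1 (R 4.3.3) fitted all values (lmFit, eBayes, CKO minus control, no covariate; two-sided; Benjamini-Hochberg over all probe sets). The fit was tested on simulated data. Exact permutation of 3 against 3 arrays, with a smallest p of 0.1, was left out. Members and lists were chosen with earlier results of these data known. The 9 pathway lists and 10 marker lists held 224 entries, 204 of them measured, 1 under an older symbol. Named genes were all family genes, up to 4 members per list with the smallest p, a fixed set (in part not reported here), and the 3 genes most like Parp9, Parp12 and Parp14. Alternatives were quantile normalization, median centring, cyclic loess, filters on the dimmest 20% and 50%, a trended robust fit, array weights, a replicate block, each array left out and the mean of probe sets; leaving out both arrays with the highest astrocyte markers was added after seeing the data. The number of arrays limits the precision.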

Additional observations from a re-analysis of the deposited data

How the results depend on the processing

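The count of members past an adjusted p under 0.05 was 0 in the reported fit and under 13 of 16 alternatives. It was 3 (Parp9, Parp10 and Parp12, all lower in CKO) with array weights, without CKO replicate 1, and without both arrays highest in astrocyte markers (CKO replicate 1 and control replicate 2), settings in which 4.76%, 4.94% and 6.28% of all probe sets passed as lower; leaving out 1 array gave 0 to 3. Without CKO replicate 1 the CKO group is 2 arrays with a narrower range of values (interquartile range 3.08 and 3.11, against 4.0 on CKO replicate 1 and 3.66 to 3.74 on the controls). The count of 6 members lower at an unadjusted p under 0.05 ranged from 4 (cyclic loess) to 6, and leaving out 1 array gave 5 or 6. Over all probe sets tested, the share lower at that threshold was 6.35% in the reported fit, 5.83% with cyclic loess and 14.2% with array weights. It was 11% with the dimmest 50% left out. Over single arrays left out it ran from 3.84% (without control replicate 1) to 13.6% (without CKO replicate 1). The counts of members therefore stood against different backgrounds. The gap between the interferon-inducible and repair members stayed negative in all 16 alternatives, from -1.26 to -0.35. Median centring, both filters, the mean of probe sets, the trended robust fit and the replicate block left the gap at -0.73. Every member stayed in under these settings, and by design none of them moves the gap, so they do not test it. Leaving out 1 array gave -1.10 to -0.35, the smallest gap being that without control replicate 3. Parp9, Parp10, Parp11, Parp12, Parp14, Parp2 and Parp3 were lower in CKO in all 16. Of the settings that left the gap unmoved, all but median centring also left each of these differences unchanged by design. Parp8 turned to 0.10 with array weights, 0.18 with cyclic loess, 0.14 with quantile normalization, 0.17 without CKO replicate 1 (-0.38 to 0.17 over single arrays left out) and 0.23 without both arrays highest in astrocyte markers, and Parp16 to -0.0070 with array weights and -0.053 without CKO replicate 1 (-0.053 to 0.35 over single arrays left out); the cause was not tested. Whether replicate numbers pair the samples was not settled. Deviations of same-numbered arrays correlated at -0.0055, -0.23 and 0.25. CKO replicate 1 correlated best with control replicate 2 (0.30), and CKO replicate 3 with control replicate 3 (0.25). Deviations cancel within each group of 3 arrays, so these correlations cannot exclude a pairing. With the replicate block, 0 members passed, 6 were lower at an unadjusted p under 0.05, and the gap was -0.73.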
